A study of Mus musculus with 10 samples.

Results

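Of 211107 accessible regions found in Myc-CaP cells, 1555 (0.737%) were called in untreated cells and after IFNγ but in no platinum treatment. The regions were made by merging the called intervals of 5 peak lists wherever they overlapped by at least 1 bp. A region was selected when intervals of both the Ctrl and the IFNγ list overlapped it and no interval of the Oxali, Cispl or Oxali + IFNγ list did. The members were thus chosen by the presence or absence of calls in these lists, and their absence after platinum is not a result. The members covered 438 kb in all, and they are called platinum-absent regions here.

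Myc-CaP is a prostate cancer cell line of the mouse, and all groups are cultures of this single line. Accessible chromatin was profiled by ATAC-seq in 10 libraries, 2 for each of 5 groups, at 48 h. Ctrl cells received no agent. Oxali cells received the platinum drug oxaliplatin at 2 µM, Cispl cells received cisplatin at the same 2 µM, and IFNγ cells received interferon-γ at 1000 pg per ml, where the labels give the amount and the study's supplement the volume. Oxali + IFNγ cells received both the oxaliplatin and the interferon-γ dose. The authors pooled the 2 libraries of a group before calling peaks, so each group is a single list without replicates and no difference between lists could be tested. As a check of the label, start sites of the prostate epithelial genes Krt8, Hoxb13 and Foxa1 were called in all 5 lists, which made 3 of 6 epithelial markers. That of Cdh1 was called in none, and those of Krt18 and Epcam in some lists. Of 3 leukocyte markers 0, of 3 endothelial markers 0 and of 4 fibroblast markers 3 (Col1a1, Col1a2 and Pdgfra) were called in all lists. The start site of the leukocyte gene Ptprc was called in the 3 platinum lists (pileups of 33 in Oxali, 34 in Cispl and 36 in Oxali + IFNγ) and in neither Ctrl nor IFNγ. That of the endothelial gene Pecam1 was called in Ctrl (29), Cispl (41) and Oxali + IFNγ (35). Those of the other leukocyte and endothelial markers (Cd3e, Itgam, Cdh5 and Tek) were called in none. Whether other cells have a part in the results was not tested.

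ATAC-seq uses a transposase that inserts sequencing adapters where nucleosomes leave DNA exposed, so reads pile up at promoters, enhancers and other open elements. Oxaliplatin and cisplatin form platinum crosslinks in DNA, which block replication and transcription, whereas IFNγ acts through a cell surface receptor. Open elements are held by sequence-specific factors, among them AP-1 (dimers of Fos and Jun proteins), Runx proteins, steroid receptors, and the forkhead factor FOXA1 of the prostate. Interspersed repeats, which occur in many copies, are mostly kept closed, and short reads from young copies are hard to place.

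Sequences are shown for members that illustrate the kinds of region found: 2 pairs of near-identical repeat copies that lay side by side, and 3 single-copy members at or near genes. Each is the forward strand of mm10, 100 bp on either side of the Ctrl summit. Capitals mark matches, on either strand, to the consensus sequences described further on: Runx and TEAD in the chromosome 3 pair, AP-1 in the defensin cluster pair, SOX upstream of Ubr2, the CCAAT box in Foxa1 and the forkhead sequence at Atp5b.
Chromosome 3 repeat, copy A, chr3:9989310-9989510: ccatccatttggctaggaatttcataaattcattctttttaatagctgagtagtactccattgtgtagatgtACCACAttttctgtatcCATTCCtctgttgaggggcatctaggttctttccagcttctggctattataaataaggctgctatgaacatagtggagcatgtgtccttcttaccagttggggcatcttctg
Chromosome 3 repeat, copy B, chr3:9990368-9990568: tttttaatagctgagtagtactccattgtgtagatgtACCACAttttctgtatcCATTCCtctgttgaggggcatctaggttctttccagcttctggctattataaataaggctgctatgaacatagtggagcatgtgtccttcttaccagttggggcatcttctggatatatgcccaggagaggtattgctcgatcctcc
Defensin cluster repeat, copy A, chr8:21818894-21819094: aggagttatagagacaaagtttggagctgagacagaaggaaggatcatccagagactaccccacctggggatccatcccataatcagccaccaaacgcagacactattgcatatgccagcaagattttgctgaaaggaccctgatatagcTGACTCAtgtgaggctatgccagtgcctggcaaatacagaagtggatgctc
Defensin cluster repeat, copy B, chr8:21820023-21820223: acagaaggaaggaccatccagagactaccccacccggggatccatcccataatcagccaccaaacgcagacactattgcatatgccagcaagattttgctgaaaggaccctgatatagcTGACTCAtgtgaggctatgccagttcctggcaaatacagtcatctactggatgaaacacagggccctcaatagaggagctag
Upstream of Ubr2, chr17:47011049-47011249: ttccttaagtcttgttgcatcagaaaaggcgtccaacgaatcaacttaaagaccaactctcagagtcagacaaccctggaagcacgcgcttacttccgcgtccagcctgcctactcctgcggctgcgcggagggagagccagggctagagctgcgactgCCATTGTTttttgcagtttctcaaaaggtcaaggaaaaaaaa
Foxa1 intron, chr12:57543809-57544009: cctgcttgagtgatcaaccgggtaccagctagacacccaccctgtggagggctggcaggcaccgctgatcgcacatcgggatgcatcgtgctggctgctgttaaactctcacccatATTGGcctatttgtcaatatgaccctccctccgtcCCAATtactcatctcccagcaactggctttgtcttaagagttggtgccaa
Atp5b start site, chr10:128086472-128086672: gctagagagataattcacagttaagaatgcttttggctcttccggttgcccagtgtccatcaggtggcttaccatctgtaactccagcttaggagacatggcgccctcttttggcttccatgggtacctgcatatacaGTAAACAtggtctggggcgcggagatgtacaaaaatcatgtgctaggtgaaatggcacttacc

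Of 92126 regions called in both Ctrl and IFNγ, 5.30% were absent from the Oxali list, 3.42% from the Cispl list and 4.23% from the Oxali + IFNγ list. In all, 6749 regions (7.33%) were absent from 1 or more of these lists, and the 1555 members were 23.0% of these and 1.69% of the 92126. The reverse pattern was larger, since 23528 regions were called in the 3 platinum lists and in neither Ctrl nor IFNγ. They were 18.9% of the 124209 regions called in all 3 platinum lists. The platinum lists were also longer, with 158621 to 174709 intervals against 122298 in Ctrl and 118949 in IFNγ. Among the 10 possible pairs of lists, the pair of Ctrl and IFNγ was 5th in the number of regions called in exactly these lists, after Oxali with Oxali + IFNγ (10170), Cispl with Oxali + IFNγ (7097), Oxali with Cispl (3258) and Ctrl with Cispl (1609). The lists differed in depth: by genome background, which is proportional to the number of reads, the IFNγ list had 79.3% of the depth of the Ctrl list, the Oxali list 92.9%, the Oxali + IFNγ list 106% and the Cispl list 113%. The Cispl list ended at a −log10 p of 2.99 and the others at 2.00. The rule gave 4759 regions without the IFNγ list and 2986 without the Cispl list.

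The platinum-absent regions were weak, and the share of regions that were absent after platinum fell steeply with strength in Ctrl. Among regions with a −log10 q below 2 in Ctrl, 19.3% were members (217 of 1127; 95% Wilson interval 17.1 to 21.7). The share was 9.99% between 2 and 5, 5.16% between 5 and 10, 2.24% between 10 and 20 and 0.471% between 20 and 50. At 50 and over it was 0.00624%, or 3 of 48062 regions. Absence from each single platinum list fell in the same way, from 41.5% to 0.0978% for Oxali, from 30.2% to 0.0333% for Cispl and from 33.3% to 0.106% for Oxali + IFNγ. These intervals cover counting error only, and since the calls chose the members the shares are a description.

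**Figure D1:**
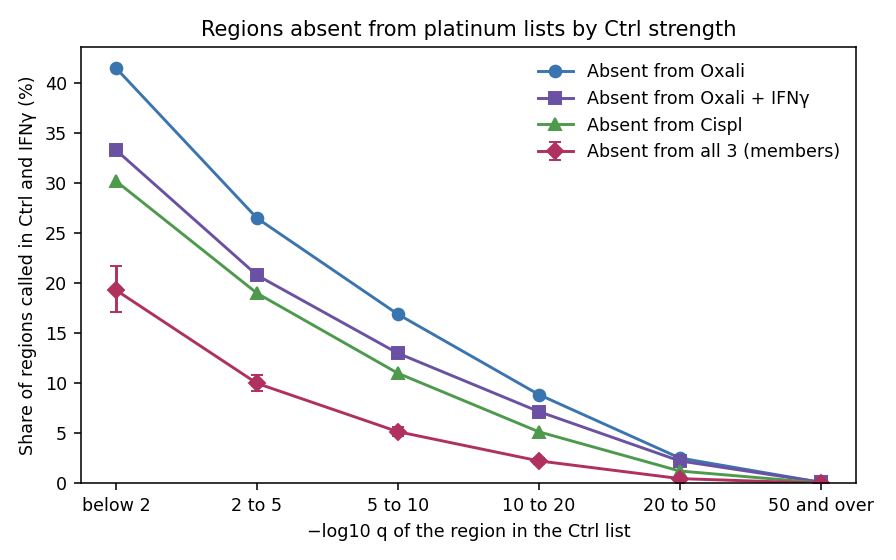
Share of regions called in Ctrl and IFNγ (y axis, %) that were absent from each platinum list and from all 3, by the region's −log10 q in the Ctrl list (x axis, 6 classes). Bars on the lowest curve are 95% Wilson intervals. All curves fall from the weakest class, where 19.3% were absent from all 3 lists, to the strongest, where 0.00624% were.

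At a typical member the Ctrl pileup, the number of read ends stacked at the summit, was 37 (median; 10th to 90th percentile 26 to 96; range 21 to 565). The IFNγ pileup was 33 (22 to 83; range 18 to 539). The fold over local background was 2.41 in Ctrl and 2.54 in IFNγ (medians), and the median region was 244 bp wide. In 1215 members (78.1%) the Ctrl and IFNγ summits lay within 50 bp of each other. A q-value of at most 0.01 in both lists was reached by 1185 members, 1e-05 by 576, 1e-10 by 184 and 1e-20 by 34. Relative to the genome background of each list, the IFNγ level exceeded the Ctrl level by a median log2 of 0.17 (10th to 90th percentile −0.33 to 0.67). Among 16326 regions called in all 5 lists that matched the middle of the members' range of Ctrl strength, this median was 0.08 (−0.40 to 0.60).

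An uncalled region is not a region without reads. By the p-value threshold of each list, the highest uncalled pileup at the genome background was 19 in the Oxali list (1.69 times its background), 21 in the Oxali + IFNγ list (1.63 times) and 26 in the Cispl list (1.89 times). For the 753 members (48.4%) that lay at the genome background in both lists, the median Ctrl pileup was 2.72 times the background and the median IFNγ pileup 3.01 times. A summit at this threshold would stand at 62% of the Ctrl level in the Oxali list, 69.5% in the Cispl list and 59.9% in the Oxali + IFNγ list (medians). These values are no upper bound: the members were all at least 150 bp wide, so a higher but narrower summit could also go uncalled, and this was not tested. For the following counts the limit was set for each member at its own Ctrl background, scaled to the depth of the list. The Ctrl pileup, scaled likewise, exceeded the limit of all 3 lists in 1495 members (96.1%). With the lower bound of its exact 95% Poisson interval in its place, 807 members (51.9%) did. A Ctrl call was needed for membership, so these shares come from values that chose the members and are a description. For the other members, counting error in Ctrl alone reaches the limit of at least 1 platinum list. A smaller share of cells with an open site and less frequent opening in every cell cannot be told apart in pooled cells.

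**Figure D2:**
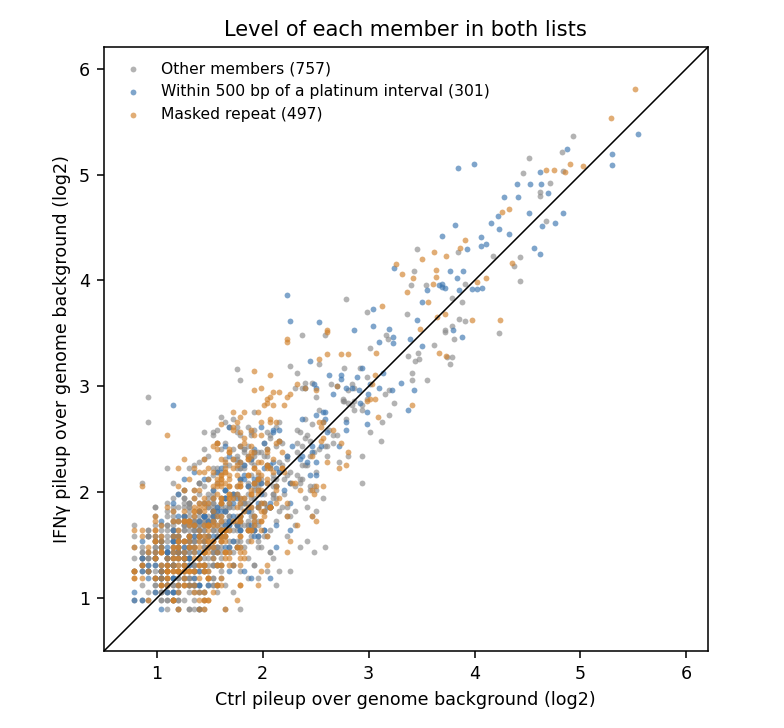
Ctrl (x axis) and IFNγ (y axis) pileup divided by each list's genome background, both log2, for each of the 1555 members, coloured by class, with the line of equality. Most members sit near the lower left, where the median pileups are 37 in Ctrl and 33 in IFNγ.

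The members fell into 3 exclusive classes: 497 (32%) in masked repeats, 301 (19.4%) others within 500 bp of an interval called after platinum, and 757 (48.7%) remaining regions. Start sites made up 14.6% of the class beside a platinum interval, 12.3% of the remaining regions and 5.43% of the repeats.

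Repeats were more frequent among the platinum-absent regions than among other regions. The 201-bp window around the summit was masked as repeat in at least 50% of its bases in 32% of members (497 of 1555; 29.7 to 34.3). The share was 14.2% among regions called in Ctrl and IFNγ, 13.0% among those called in all 5 lists, 14.9% among the latter after weighting to the members' Ctrl strength, 15.8% among regions called after platinum alone and 17.2% among all merged regions. The members' interval holds none of these values. The weighting equalises strength in Ctrl, and the gap of members to the weighted regions was close to that to the unweighted ones. The 32 bases at the summit occurred once in the genome in 71.1% of members (68.8 to 73.3), against 90.2% of the weighted regions, 91.6% of those called after platinum alone and 89.6% of all. In 19.1% of members (297; 17.2 to 21.1) they occurred 10 times or more, against 5.29%, 4.36% and 6.00%.

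Among weak regions, those with repeated sequence were members more often. With a Ctrl −log10 q below 10, 6.57% of the regions called in Ctrl and IFNγ that had a single-copy summit were members (6.16 to 7.00). The share was 14.7% with 2 to 9 copies (12.5 to 17.2) and 17.1% with 10 copies or more (15.2 to 19.3). By masking, the shares were 6.75% below 50% (6.32 to 7.21) and 13.0% at or above it (11.8 to 14.2). Of the 497 members in the repeat class, 266 (53.5%) had 10 copies or more and 159 (32%) a single copy. Their median Ctrl background was 12.1, the genome background itself. Poorly placed reads were removed by mapping quality, and whether reads of other copies remained was not tested.

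**Figure D3:**
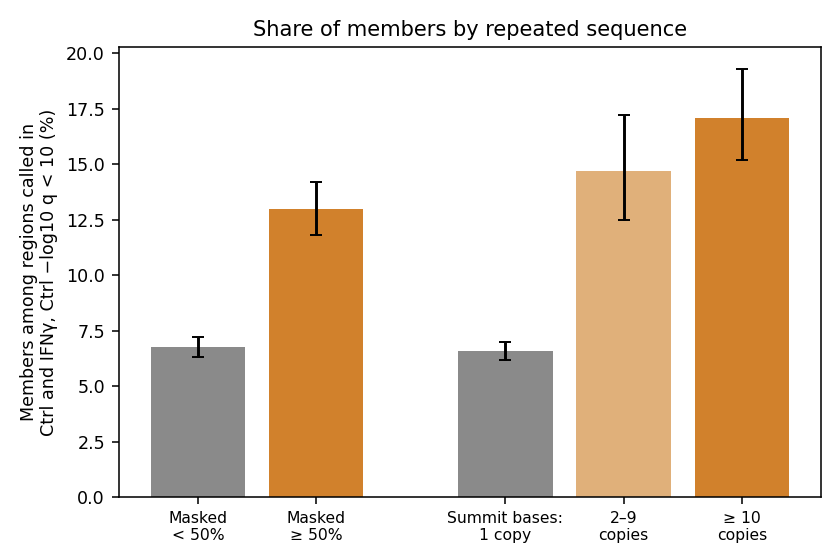
Share of members (y axis, %, with 95% Wilson intervals) among regions called in Ctrl and IFNγ with a Ctrl −log10 q below 10, by masking of the window and by genome copies of the 32 summit bases. The share is 6.57% at single-copy summits and 17.1% at summits with 10 copies or more.

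Several of the strongest members were repeat copies that lay side by side. Within 2000 bp of another member lay 161 members, in 75 clusters. In 33 of the 104 pairs within a cluster, the 2 windows were at least 90% identical over at least 100 aligned bases. These pairs held 66 members, 29 of the pairs were masked as repeat on both sides, and 20 had their summits 1000 to 1200 bp apart. Pileups of such partners were close, with a median difference of 4.55% in Ctrl and 2.38% in IFNγ. In the other 71 pairs it was 16.7% and 14.9%. Clusters and pairs among other regions were not counted, so these values describe the members alone. The chromosome 3 pair shown above was identical over all 166 aligned bases, with summits 1058 bp apart. Copy A, chr3:9989325-9989495, had a pileup of 85 in Ctrl and 95 in IFNγ. Copy B, chr3:9990381-9990550, had 81 and 95. Both lay between genes at a local background equal to the genome background, and their summit bases had 4165 and 26774 copies in the genome.

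The defensin cluster pair, between genes near Defb50, a gene of the antimicrobial defensin family, had similar values. Copy A, chr8:21818898-21819079, had a pileup of 74 in Ctrl and 95 in IFNγ, and copy B, chr8:21820024-21820212, had 70 and 92. The most crowded cluster held 6 members within the noncoding transcript Gm14643 on the X chromosome, all fully masked, and the nearest platinum interval was 679 kb away or more. In order along the chromosome their Ctrl pileups were 57, 74, 57, 58, 74 and 57, and their IFNγ pileups were 72, 110, 103, 73, 111 and 105. The values of the first 3 members thus recurred, within 2 reads, in the next 3 members in both lists. Another member of the X chromosome among the 10 strongest, chrX:127956580-127957029, was fully masked as well, with pileups of 69 and 75 and 43 copies of its summit bases. In a strong repeat member within a gene, chr6:115609201-115609599 in an exon of Mkrn2, a ring finger gene, the window was masked in 61.2% of its bases and the summit bases had a single copy. Its pileup was 129 in Ctrl and 68 in IFNγ.

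The distance to open elements called after platinum is described here without a test, since the same platinum intervals chose the members. The nearest platinum interval was a median of 1601 bp away, with quartiles of 436 and 4070 bp. For regions called in all 5 lists, weighted to the members' Ctrl strength, the nearest platinum interval of another region was a median of 1033 bp away, and for all merged regions 1337 bp. It was nearer than 500 bp in 421 members (27.1%; 24.9 to 29.3), against 39.4% of the weighted and 35.5% of all regions, and nearer than 100 bp in 103 (6.62%), against 17.3% and 15.6%. A region that touched a platinum interval could not be a member, and the part of the rule in the gap between members and other regions was not tested. In 237 of the 421 (56.3%) the interval belonged to a region called in all 5 lists. Nearer than 5000 bp the shares were close, at 80.0% of members, 83.2% of the weighted and 78.8% of all regions. At 10000 bp or more from any platinum interval lay 159 members (10.2%), a count not made for other regions.

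The member with the highest lower −log10 q of the Ctrl and IFNγ lists lay beside such an interval. Its −log10 q was 94.3 in Ctrl and 67.4 in IFNγ, where other members reached up to 105. It lay in an intron of Rrm2, the small subunit of ribonucleotide reductase that makes deoxynucleotides for DNA synthesis, at chr12:24710772-24710956, where the pileup was 565 in Ctrl (background 202) and 402 in IFNγ (background 143). A neighbouring region 310 bp away was called in every list, with pileups of 787 in Ctrl, 551 in IFNγ, 379 in Oxali, 435 in Cispl and 419 in Oxali + IFNγ. The neighbour was thus lowest in the 3 platinum lists. In Foxa1 the member at chr12:57543835-57543986 had pileups of 476 in Ctrl (background 278) and 327 in IFNγ (background 173). Its fold over local background was 1.71 in Ctrl and 1.89 in IFNγ. Its neighbour 321 bp away had 692 in Ctrl, 395 in IFNγ, 680 in Oxali, 726 in Cispl and 638 in Oxali + IFNγ, all before any correction for depth.

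Over the 235 distinct neighbours called in all lists, the level relative to genome background differed from Ctrl by a median log2 of −0.09 in Oxali, −0.15 in Cispl, −0.06 in Oxali + IFNγ and −0.07 in IFNγ. Over all 85377 regions called in all lists the medians were 0.15, 0.07, 0.14 and −0.25 in the same order. Relative to these shifts, neighbours of members were lower after platinum and higher after IFNγ. The sets were not matched for strength, with a median Ctrl pileup of 182 among neighbours and 139 among all. The part of strength in these differences was not tested. The quartiles for Oxali were −0.40 and 0.36 among neighbours and −0.26 and 0.65 among all, so the distributions overlapped widely. These values come from the comparisons that chose the members and are given without a test.

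Of the 1555 members, 164 (10.5%; 9.12 to 12.2) lay within 1 kb of a transcription start site, 97 (6.24%) in other exons, 648 (41.7%) in introns and 646 (41.5%) between genes. Among regions called in Ctrl and IFNγ, 22.6% lay at start sites. After weighting the regions called in all lists to the members' strength the share was 12.8%, just above the members' interval. Among regions called after platinum alone it was 10.2%. For other exons, introns and sequence between genes the weighted shares were 7.84%, 39.5% and 39.8%. Over all merged regions they were 6.94%, 39.8% and 37.3%. The members' interval lay below the weighted share for exons (5.14 to 7.55) and held it for introns (39.2 to 44.1) and between genes (39.1 to 44.0). Untranslated regions were touched by 3.79% of members (2.95 to 4.86), against 6.98% after weighting and 3.77% among regions called after platinum alone. The mean GC content of the window was 49.6%, the same as in the weighted regions (49.6%) and in all merged regions (49.6%), and it was 47.9% in regions called after platinum alone.

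At start sites of protein-coding genes lay 114 members (7.33%; 6.14 to 8.73). The share was 18.5% among regions called in Ctrl and IFNγ and 9.03% among the weighted regions. It was 6.79% among regions called after platinum alone and 12.2% among all merged regions. The 8 strongest of these members were at Ubr2, Mthfsd, Vkorc1, Arl8b, Fes, Atp5b, Rhno1 and Unc13a. The first 4 of these lay 49 to 377 bp from a region that kept its call in every list. Upstream of Ubr2, which encodes a ubiquitin ligase of the N-degron pathway, the member chr17:47011051-47011234 had pileups of 204 in Ctrl and 147 in IFNγ. Its local background was 78.3 in Ctrl and 46.5 in IFNγ. The region over the Ubr2 start site, 257 bp away, had 1526 in Ctrl, 866 in IFNγ, 1006 in Oxali, 950 in Cispl and 789 in Oxali + IFNγ. At Vkorc1, the target of warfarin, the member chr7:127896483-127896698 (198 and 146) lay 377 bp from a start-site region. That region had 1784, 910, 1492, 1605 and 1251 in the same order. The local background of the member was 84.7 in Ctrl and 50.3 in IFNγ.

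At Mthfsd the member chr8:121104558-121104721 had pileups of 277 in Ctrl (background 132) and 240 in IFNγ (background 91.3). Its neighbour 189 bp away had 560 in Ctrl, 372 in IFNγ, 340 in Oxali, 437 in Cispl and 295 in Oxali + IFNγ. At Arl8b, a small GTPase gene of lysosome transport, chr6:108782633-108782807 had 179 and 106 at local backgrounds of 47.7 and 31.8. Its neighbour 49 bp away had 790, 422, 579, 606 and 397 in the same order. These pileups are not corrected for depth.

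The other 4 had no platinum interval within 1000 bp, and the nearest lay 1312 to 2482 bp away. At Fes, a tyrosine kinase gene, the member chr7:80379630-80379787 overlapped the start site and an untranslated region, with a pileup of 182 in Ctrl and 150 in IFNγ. At Atp5b, which encodes the beta subunit of the mitochondrial ATP synthase, chr10:128086475-128086640 lay 244 bp from a start site, with pileups of 252 and 169. At Rhno1, which acts in the checkpoint response to stalled replication, chr6:128359090-128359314 lay 42 bp from a start site, with pileups of 262 and 153. At Unc13a, a gene of synaptic vesicle release, chr8:71668168-71668434 had 128 and 149. In these 4 regions the fold over local background was 2.16 to 2.39 except at Unc13a in IFNγ, where it was 3.89. Their local Ctrl backgrounds were 81.5, 113, 109 and 53.4 in the order named, against a genome background of 12.1.

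Exact matches to 20 consensus sequences were counted in the 201-bp windows on both strands. AP-1 matches (TGANTCA) were rarer in members than in other regions, at 13.3% (207; 11.7 to 15.1). The share was 27.9% among regions called in all lists weighted to the same Ctrl strength, 21.6% among regions called after platinum alone and 21% among all merged regions. Leaving out masked windows raised the members' share to 17.3% (15.1 to 19.7) and the weighted share to 29.1%. Among the classes AP-1 matches were in 4.83% of repeats, 13.0% of members beside a platinum interval and 19.0% of the remaining members. The reversed sequence, as a background, matched 5.14% of members and 7.62% of the weighted regions.

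Runx matches (TGTGGT) were in 17.7% of members (15.9 to 19.7), against 24.5% of the weighted regions, 28.2% of those called after platinum alone and 23.2% of all. The steroid receptor element, a pair of inverted half-sites bound by glucocorticoid and related receptors, was in 2 members (0.129%; 0.0353 to 0.468). It was in 1.70% of the weighted regions, 5.01% of regions called after platinum alone and 2.37% of all. The interferon-stimulated response element, bound by IRF proteins, was in 0.707% of members (0.395 to 1.26), against 2.01%, 3.34% and 2.54%. Its reversed sequence showed a similar gap, at 1.09% of members and 2.14% of the weighted regions, so the gap was not particular to the element. The reversed sequences of the other 2 matched 14.5% of members against 15.1% (Runx) and 0.193% against 0.338% (steroid element). For these 4 sequences the members' interval lay below the weighted share among unmasked windows too, where the shares were 16.1% against 22.9% for Runx, 0.189% against 1.85% for the steroid element and 0.662% against 2.13% for the interferon element.

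Forkhead matches (TGTTTAC) were in 4.63% of members (3.69 to 5.79), an interval that held the share of the weighted regions (4.97%).

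Matches to the GATA and SOX factor sequences were more frequent in members. The GATA factor sequence, spelled AGATAAG, was in 2.96% (2.23 to 3.92), against 1.75% of the weighted regions, 1.22% of those called after platinum alone and 1.60% of all. SOX (AACAATGG) was in 1.80% (1.25 to 2.59), against 0.858%, 0.744% and 0.816%. In unmasked windows the members' shares were 3.69% (2.71 to 5.00) and 1.70% (1.08 to 2.67), against weighted shares of 1.81% and 0.898%. The reversed sequences were in 1.48% of members against 1.77% of the weighted regions (GATA) and in 0.257% against 0.372% (SOX). The CCAAT box, searched by these 5 letters, was in 27.7% of members (25.5 to 29.9) against 21.4%, but in unmasked windows the interval held the weighted share (23.1%, 20.6 to 25.7, against 21.3%). Over all 20 sequences the members' interval lay below the weighted share for 7, above it for 3 and held it for 10, and in unmasked windows the counts were 4, 2 and 14. The E-box bound by Myc (CACGTG), TEAD (GGAATG) and CTCF sequences were below only with masked windows included. No sequence spelled out here contains another, and a match describes the letters in the window, not binding.

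**Figure D4:**
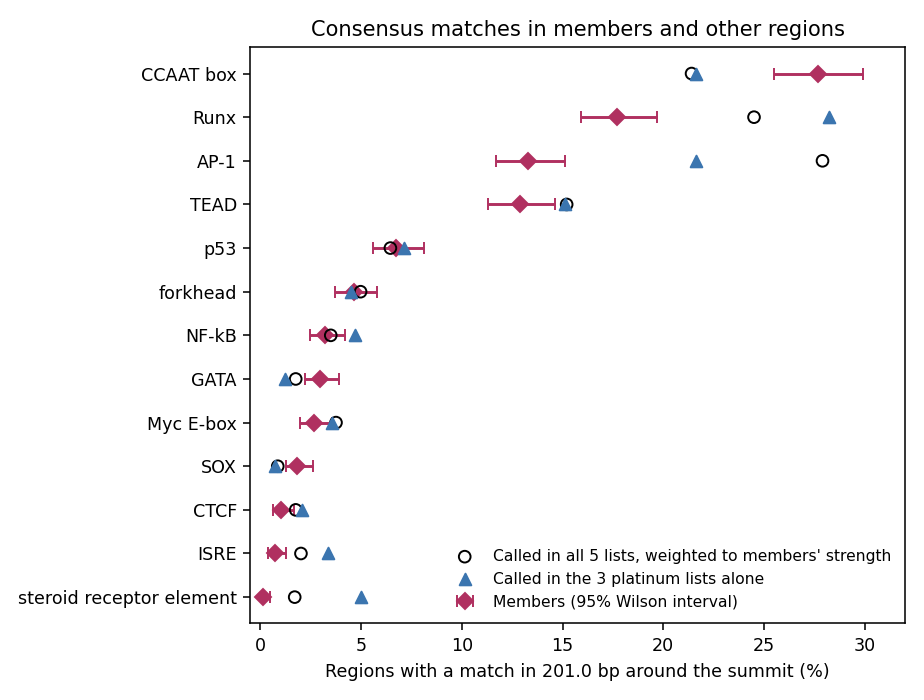
Share of regions with a match to each consensus sequence in the 201 bp around the summit (x axis, %) for 13 of the 20 sequences. Diamonds are members with 95% Wilson intervals, circles regions called in all 5 lists weighted to the members' Ctrl strength, and triangles regions called after platinum alone. AP-1 stands at 13.3% in members and 27.9% in the weighted regions.

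A member lay in the gene body or within 5 kb for 923 of 21924 protein-coding genes (4.21%), and 829 of these held 1 member. These genes were long, with a median of 49.4 kb against 17.4 kb for all protein-coding genes. Among prostate epithelial regulators, 3 of 24 genes (12.5%; 4.34 to 31.0) held a member: Foxa1, the epithelial factor Grhl2 and Runx2. Growth factor receptors and their feedback regulators had 3 of 24 as well (Dusp4, Egfr and Fgfr2). Both intervals lay just above 4.21%, and the median gene lengths of these lists were 28.0 and 42.9 kb, above that of all genes. With a flank of 50 kb both intervals held the share over all protein-coding genes (12.4%), at 6 of 24 (12.0 to 44.9) for the prostate regulators and 3 of 24 for the growth factor list. In the gene body alone the growth factor list had 2 of 24, with an interval (2.32 to 25.8) that held the 3.17% over all genes, whereas the prostate regulators kept 3 of 24 (4.34 to 31.0), above it. These counts rest on 3 genes a list, and no correction for gene length was made.

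In the other lists the interval held the 4.21% over all protein-coding genes. The androgen response list had 3 of 25 (Fkbp5, Tsc22d3 and Zbtb16; 12.0%, 4.17 to 30.0). In the gene body alone it also had 3 of 25, above the 3.17% over all genes. NF-κB signalling had 2 of 18 (Nfkbie and Traf1), cell cycle and DNA replication 2 of 35 (Plk1 and Rrm2), MYC and its targets 1 of 25 (Polr1b), and mesenchymal and matrix genes 1 of 24 (Fn1). No gene among 25 p53 targets, 25 genes of interferon signalling, 18 of class I antigen presentation and 26 of epithelial adhesion and cytoskeleton held a member, with upper 95% limits of 13.3%, 13.3%, 17.6% and 12.9%. Within 50 kb these lists had 3, 5, 3 and 3 genes with a member, and each interval held 12.4%.

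Of members in or near listed genes, the 10 strongest lay at Rrm2, Foxa1, Fgfr2 (3), Tsc22d3, Traf1, Runx2, Fkbp5 and Egfr. In Traf1, an adaptor of TNF receptors, chr2:34948706-34948911 had 44 and 41 at a background of 12.6 in Ctrl. In Runx2, which encodes a Runx factor, chr17:44618848-44619013 had 67 and 52 and itself held a Runx match. Its neighbour 312 bp away kept its call, with 335 in Ctrl, 225 in IFNγ, 390 in Oxali, 356 in Cispl and 367 in Oxali + IFNγ. Near the Fgfr2 start site, chr7:130267204-130267355 had 249 and 173 in a window masked in 76.6% of bases. A member at chr7:130595130-130595383, lay 934 bp from a start site of Tacc2, a gene inside the 2961 kb that the annotation gives to Fgfr2, and had 194 in Ctrl and 330 in IFNγ. The remaining Fgfr2 member, chr7:130592069-130592321, also lay within Tacc2 and had 174 and 322.

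In Fkbp5, which encodes a chaperone partner of steroid receptors, the intronic member chr17:28476001-28476314 had 69 in Ctrl and 47 in IFNγ. A region 89 bp away was called in every list, with 200 in Ctrl, 105 in IFNγ, 108 in Oxali, 173 in Cispl and 126 in Oxali + IFNγ. In an exon of Egfr, the epidermal growth factor receptor gene, the member chr11:16874773-16874974 had 51 and 46 and held an AP-1 match. Its neighbour 98 bp away had 254 in Ctrl, 163 in IFNγ, 110 in Oxali, 128 in Cispl and 130 in Oxali + IFNγ. The neighbours in Fkbp5 and Egfr thus had their highest pileup in Ctrl.

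Among the genes that held the most members, most were long. Gm20388, annotated over 4435 kb, held 13 members among 583 regions called in Ctrl and IFNγ. Fgfr2 held 5 of 239. Osbpl10, an oxysterol-binding protein gene, held 4 of 22 over 254 kb, and Zbtb20, a zinc finger repressor gene, held 4 of 56 over 767 kb. Abcg5, a sterol transporter gene, held 3 of 6 over 24.8 kb and was the most densely occupied of 10 genes with 3 members.

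At the edge of the rule, values were small. The 3 members with the least support had a −log10 p of 2.16 (pileup 21) in Ctrl and 2.05 (19) in IFNγ at chr7:102095180-102095413, 2.25 (23) and 2.30 (25) at chr12:54611699-54611912, and 2.16 (21) and 2.65 (19) at chr1:87718067-87718386. Just outside were regions called in Ctrl, IFNγ and the Oxali + IFNγ list. In the latter list 2 of these had a −log10 p of 2.14 (22) at chr12:115621352-115621743 and 2.15 (22) at chr5:113780091-113780794.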

How the data were processed

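Per the labels and the study's methods, the authors trimmed reads with cutadapt, aligned them to mm10 with Bowtie2 2.2.8, filtered them by mapping quality with SAMtools, discarded duplicate and mitochondrial reads, combined both libraries of a group into 1 set of reads and called peaks with MACS2 2.1.0 without a control library. Peaks in blacklisted sequence were removed. The deposited fold is a ratio, (pileup + 1) / (background + 1), at the summit. Beside it the authors deposited −log10 values of the Poisson p-value and of its adjusted q-value. The deposited score column, which rescales these values, was not used. Reads had been removed by quality before deposit, so levels in repeats reflect only reads the authors kept.

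Distinct intervals of the 5 lists were merged where they overlapped by 1 bp. The whole-number pileup and the background were solved from the deposited fold and −log10 p, which succeeded for 100.0% of summits and was tested on simulated data. The smallest common background of a list is its genome background and stands for its depth, which was 9.62 (IFNγ), 11.3 (Oxali), 12.1 (Ctrl), 12.9 (Oxali + IFNγ) and 13.8 (Cispl). Genes came from GENCODE M21, and sequence and repeat masking from GRCm38, the assembly of mm10. For weighting, regions called in all lists were brought to the members' distribution of Ctrl −log10 p in 10 classes. The 95% Wilson intervals of shares hold counting error alone and are unadjusted over 20 sequences and 11 gene lists. Without replicates no test was run. Calculations used Python 3.11.15 with numpy 2.4.6, pandas 2.3.3, scipy 1.17.1 and Biopython 1.88.

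Members named were the 10 with the highest lower −log10 q of Ctrl and IFNγ, the 8 highest at protein-coding start sites, the 10 highest in or near listed genes and, for genes, 5 of those holding most members, ties going to the gene with most members per kb. Members, gene lists and sequences searched were chosen with earlier results of these data known. The classes of members, the copy counts and the distances of other regions to platinum intervals were chosen after seeing the data. Counts per library, on which the study tested differences, were not analysed here. Results on some genes and 1 locus are not reported here.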

Additional observations from a re-analysis of the deposited data

How the results depend on the processing

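The count of 1555 members depended most on the lists and on the threshold. A q-value of at most 1e-05 in Ctrl and IFNγ left 576. The rule without the IFNγ list gave 4759 regions and without the Cispl list 2986. The other alternatives stayed between 1058 (masked windows left out, an alternative chosen after seeing the data) and 2083 (the rule without the Oxali + IFNγ list), and joining intervals within 100 bp gave 1412. The share at start sites, 10.5%, was 7.01% with a window of 500 bp, 21.4% with 2500 bp and 12.9% without masked windows, and it stayed within its interval under the other 2 alternatives. The share in repeats, 32%, was 33.2% under both of its alternatives. The median GC content, 49.3%, was 50% in unmasked windows, chosen after seeing the data. Of 80 alternative motif shares 64 stayed within the interval of the main share and 16 did not, and of 22 alternative gene list counts 11 stayed within 1.5 times.

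No paired analysis was possible because each list was called on pooled libraries, and leaving out each library could not be run for the same reason. The IFNγ list was the shallowest and the Cispl list, the deepest, ended at a higher −log10 p than the others. No alternative matched the lists in depth, so its part in the calls of weak regions was not tested.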
